A study of Mus musculus with 16 samples.

Results

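TAU/LysM microglia were compared with microglia of old LysM-Cre/SIRT1F/F mice, on 5 of the 16 arrays of the series, chosen by their labels. The TAU/LysM group has 2 arrays and the old LysM-Cre group has 3. Cells were dissociated from mouse brain, depleted of myelin and enriched for CD11b, an integrin subunit of myeloid cells, and their RNA was read on 1-colour Illumina arrays.

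In SIRT1F/F mice the Sirt1 gene is floxed. It encodes a protein deacetylase that uses NAD. LysM-Cre is a Cre recombinase driven by the locus of lysozyme 2 (Lyz2), active in neutrophils, monocytes and macrophages as well as in part of the microglia. The old LysM-Cre group is labelled old and LysM-Cre/SIRT1F/F, without an age in months. The TAU/LysM group is labelled with that genotype alone: its age is not given, the floxed Sirt1 allele is not repeated, and the tau transgene and its promoter are not named. Every group shares a genetic background described as BL6 and 129/Sv. Transgene, age, the share of each background and any difference in the Sirt1 alleles therefore cannot be told apart in this comparison. By sex-linked genes, given below, the mix of sexes also differed between the arrays. The labels do not say that arrays come from separate mice, so a p-value here weighs only array-to-array spread, part of which may be technical. Arrays without Cre, 2 labelled TAU and 3 labelled old SIRT1F/F, served to ask whether the same contrast looked different there.

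Microglia are macrophages that live in the brain tissue. In the healthy brain they express a homeostatic set of genes for surface receptors such as P2ry12 and Tmem119. Near protein aggregates, dying neurons or damaged myelin, microglia of mouse models lower part of that set and raise genes of lipid handling, lysosomes and phagocytosis, a state often called disease-associated microglia, which in amyloid models depends on the lipid receptor Trem2. A type I interferon response is a separate program seen in some of these cells.

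Both groups carried microglial RNA. Cx3cr1, the fractalkine receptor, was at 14.70 and 14.55 in TAU/LysM and between 14.69 and 14.83 in old LysM-Cre on the log2 scale of normalized intensity, and Trem2 was at 14.80 and 14.89 against 14.73 to 14.81. Across the 16344 probes tested, the TAU/LysM arrays correlated at 0.989 with each other, the old LysM-Cre arrays at 0.986 to 0.992, and arrays of different groups at 0.979 to 0.987. TAU/LysM array 1 stood apart for haemoglobin: Hba-a1 was at 14.55 there, 10.05 on TAU/LysM array 2 and 11.24 to 11.40 in old LysM-Cre. The Y-linked gene Eif2s3y was at 5.07 on TAU/LysM array 1, 9.90 on array 2 and 9.67 to 11.04 in old LysM-Cre, while the female-expressed Xist was at 10.93 and 11.01 against 10.21 to 11.10. TAU/LysM array 1 thus lacked the Y-linked signal, while TAU/LysM array 2 and the old LysM-Cre arrays held both signals. The fit held no term for sex. The probes of Cx3cr1 and Trem2 exceeded 30000 intensity units on at least 1 array, near the top of the range (42456 to 49192 was the highest signal of an array), where a difference can be understated. How precisely a difference is known is limited by the small number of arrays.

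More genes rose than fell, and apolipoprotein and disease-associated microglia genes were among the largest increases. At a limma adjusted p under 0.05, 242 probes were higher in TAU/LysM (1.48% of those tested) and 128 were lower (0.783%), and 2545 had an unadjusted p under 0.05. The called probes covered 186 named genes that rose and 110 that fell. With 1 probe taken per gene, 170 of 10986 genes rose (1.55%) and 100 fell (0.91%). The median difference over all tested genes was -0.01, with a median standard error (SE) of 0.16 for a probe. Among the called probes, 100 were more than 2-fold higher and 35 more than 2-fold lower. The groups did not overlap on any of the 370 called probes. Over all 16344 tested probes, called or not, both TAU/LysM arrays lay above all old LysM-Cre arrays on 2629 and below them on 2603. Probes picked by a small p tend not to overlap, so this adds no support to the calls. The counts rested in part on single arrays: 63 probes were called without TAU/LysM array 2, 207 without TAU/LysM array 1, and 257, 185 and 182 without old LysM-Cre array 1, 2 and 3, while a fit of the 5 arrays alone called 138. Of 64 called genes named by a fixed rule, 21 were called without any 1 of the 5 arrays, and 43 lost their call without TAU/LysM array 2.

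**Figure D1:**
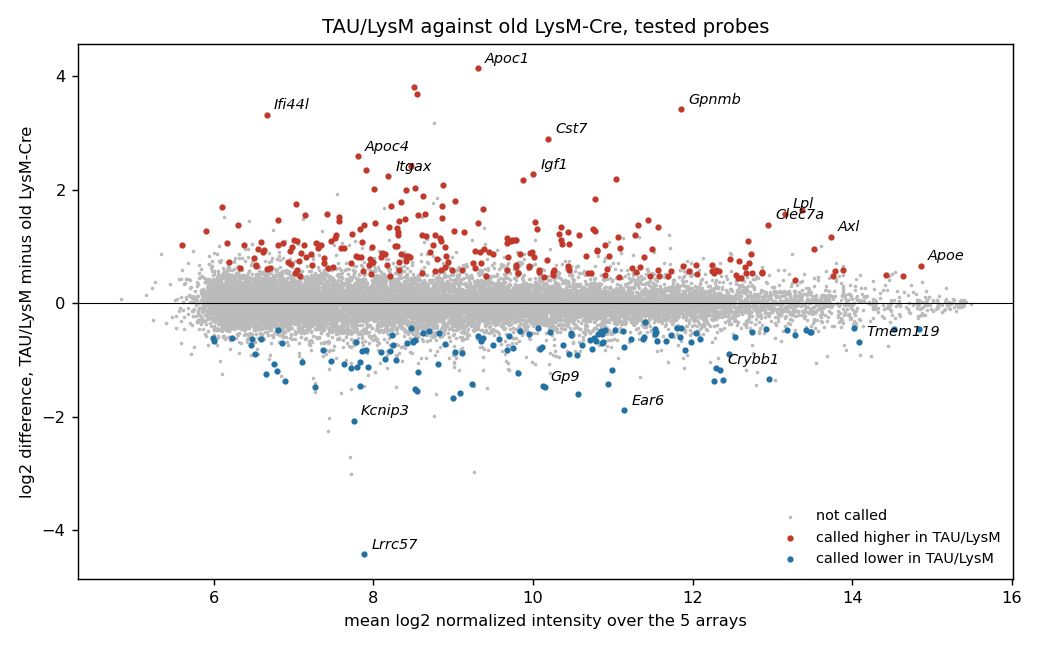
Each point is a tested probe, with its mean log2 normalized intensity over the 5 arrays on the horizontal axis and the log2 difference between TAU/LysM and old LysM-Cre on the vertical axis; red and blue mark probes called higher and lower at a limma adjusted p under 0.05. Apoc1 is the highest of the genes that rose, at 4.14. Lrrc57 is plotted at -4.43, but it was not above background on the TAU/LysM arrays, so only its direction and a lower limit of its fall can be read.

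The gene with the largest increase was Apoc1, a small apolipoprotein that inhibits lipoprotein lipase and binds lipoproteins. Its level was 11.61 and 11.97 on the TAU/LysM arrays and 7.53, 7.78 and 7.64 on the old LysM-Cre arrays. The difference was 4.14 ± 0.21 (SE), or 17.6-fold, with an adjusted p of 1.64e-07, and its 2 probes gave 3.69 and 4.14. The neighbouring genes of the same lipoprotein cluster rose as well. Apoc4 was at 9.08 and 9.63 against 6.91, 6.88 and 6.51, a difference of 2.59 ± 0.26. Apoc2, which activates lipoprotein lipase, was at 8.46 and 8.48 against 7.09, 7.03 and 6.76, a difference of 1.51 ± 0.28, although its other probe gave 0.15. Apoe, the main lipid carrier of the brain, was at 15.28 and 15.23 against 14.57, 14.61 and 14.59, a difference of 0.66 ± 0.16 with an adjusted p of 0.043. Its probe reached 37727 intensity units, so this difference can be understated. In gene order the run was Apoc2, 1 other gene, Apoc4, Apoc1 and Apoe. Apoc1 and Apoc4 were called without any 1 of the 5 arrays, while the call of Apoe was lost without each of them in turn.

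Among 15 tested genes of lipid efflux and liver X receptor (LXR) targets, the 4 apolipoproteins and Plin2, a coat protein of lipid droplets, rose (1.55% of all genes did) and none fell. Plin2 was at 10.01 and 10.34 against 9.27, 9.45 and 9.35. The list's median difference was 0.49, beside -0.01 over all tested genes. The cholesterol transporters did not pass the test, with Abca1 at a difference of 0.22 and Abcg1 at 0.49, nor did the LXR gene Nr1h3 at 0.11. The lysosomal genes Lipa and Npc2 had larger values that also missed it. Lipa, the acid lipase, differed by 0.66 (adjusted p = 0.143), and Npc2, which hands cholesterol out of the lysosome, by 0.53 (adjusted p = 0.126). The count of 5 became 3 without old LysM-Cre array 1 or 2, and 2 without old LysM-Cre array 3. The calls of Apoe and Plin2 were lost without each of the compared arrays in turn. That of Apoc2 was lost without either TAU/LysM array or old LysM-Cre array 3. Of 19 tested genes of cholesterol and fatty acid synthesis, only Acaca rose (1.55% of all genes did). This acetyl-CoA carboxylase, which makes malonyl-CoA for fatty acid synthesis, was at 10.54 and 11.13 against 9.65, 9.39 and 9.53 (difference 1.31 ± 0.17), and the list's median was 0.13.

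Disease-associated microglia genes made up the most called list. Of 24 tested members 13 rose (1.55% of all genes did), none fell, and 11 did not pass the test, with a median difference of 0.61. Both TAU/LysM arrays lay above all 3 old LysM-Cre arrays for 20 of the 24 (16.3% of all tested genes). Spp1 and Cd68, also on the list, have no named probe on the array. The list is known from such disease models and was taken up with earlier results of these data known, so its direction is not independent evidence.

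Gpnmb, a transmembrane glycoprotein of lipid-laden macrophages, had the largest difference in the list. Its level was 13.60 and 14.22 in TAU/LysM and 10.66, 10.63 and 10.16 in old LysM-Cre, a difference of 3.42 ± 0.22 or 10.7-fold (adjusted p = 2.89e-06), and its 3 probes gave 1.28 to 3.81. Its mean was 8.80 ± 0.07 (SD, n = 3) in young LysM-Cre, 10.49 ± 0.28 (n = 3) in old LysM-Cre and 13.91 ± 0.44 (n = 2) in TAU/LysM. Cst7, a cysteine protease inhibitor of the cystatin family, was at 11.93 on both TAU/LysM arrays against 9.39, 8.79 and 8.92, a difference of 2.90 ± 0.28. Igf1, insulin-like growth factor 1, was at 11.18 and 11.54 against 8.93, 9.16 and 9.19 (2.27 ± 0.16). Unlike Gpnmb, Igf1 had nearly the same mean in young and old LysM-Cre, 9.26 ± 0.16 and 9.09 ± 0.14.

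Surface receptors of the program rose too. Itgax, which encodes CD11c, was at 8.94 and 10.11 against at most 7.50 in old LysM-Cre, where its mean was 7.29 ± 0.26 (SD, n = 3), a difference of 2.24 ± 0.27, so that the TAU/LysM arrays differed from each other by more than the old LysM-Cre arrays did. Clec7a, the beta-glucan receptor dectin-1, was at 13.64 and 13.92 against 12.55, 12.33 and 12.31 (1.38 ± 0.16). Its 4 probes gave 0.4 to 1.46, and 3 of them were called. Axl, a receptor for phosphatidylserine-binding ligands on dying cells, was at 14.41 and 14.46 against 13.38, 13.07 and 13.34 (1.17 ± 0.19). The tetraspanins Cd9 and Cd63 rose by 0.48 ± 0.10 and 0.50 ± 0.11, with 2 of the 3 Cd63 probes called. Trem2 itself differed by 0.06 ± 0.09 (adjusted p = 0.814) on a probe that reached 34805 intensity units, where a difference can be understated, and its adaptor Tyrobp differed by 0.18. The Cd9 probe reached 31261 units.

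Secreted and metabolic members completed the set. Lpl, lipoprotein lipase, was at 14.17 and 14.04 against 13.02, 12.39 and 12.16 (1.58 ± 0.23). Csf1, a growth factor for microglia, was at 11.76 and 12.24 against 11.05, 10.40 and 10.95 (1.20 ± 0.25), and the chemokine Ccl6 was at 11.30 and 11.42 against 10.67, 10.24 and 10.37 (0.93 ± 0.15). Ank, a pyrophosphate transporter, was at 12.04 and 12.23 against 10.78, 10.72 and 10.78 (1.38 ± 0.10), the smallest SE in the list among those that rose by more than 2-fold. The cathepsin Ctsb (0.07), the ferritin chain Fth1 (0.06) and B2m (-0.13) had small differences on probes that reached 38944, 47542 and 44289 intensity units, so that a change in them may go unseen. Lgals3, or galectin-3, differed by 0.65 with an adjusted p of 0.0716. The count of 13 fell to 7 without TAU/LysM array 2 and to 8 in the fit of the 5 arrays alone, and was 9 to 11 without any other of the 5 arrays. Gpnmb, Cst7, Igf1, Itgax, Clec7a, Lpl and Ank were called without any 1 array.

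**Figure D2:**
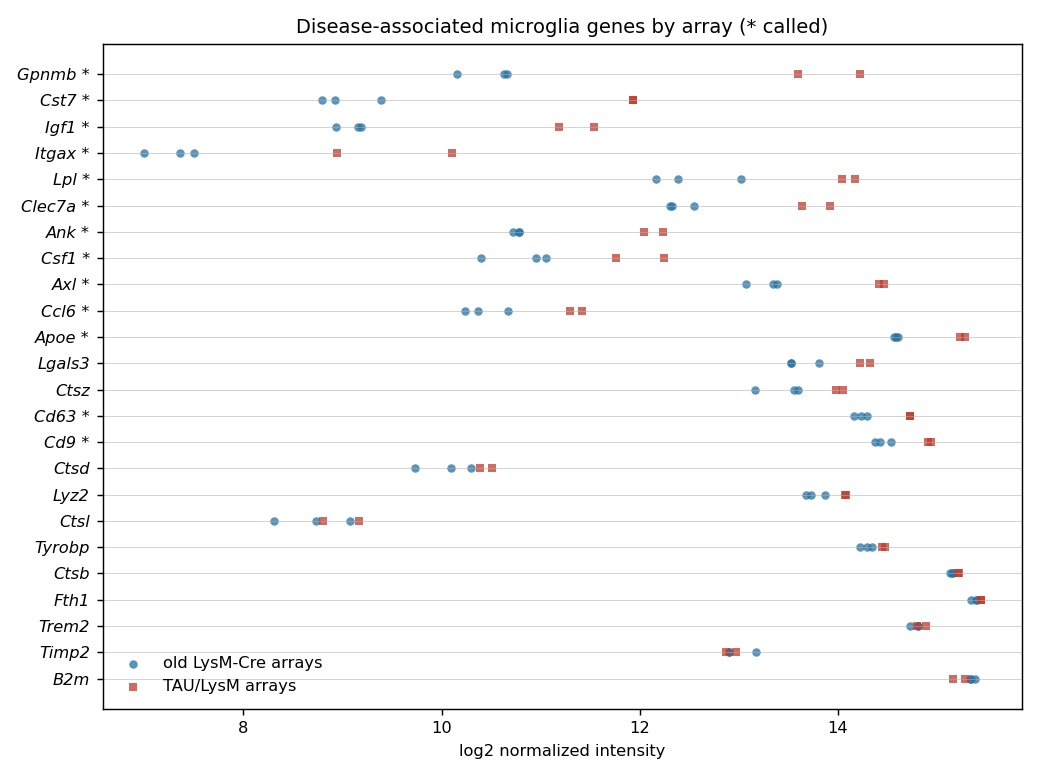
Each row is a tested disease-associated microglia gene and each point the log2 normalized intensity on 1 array, with TAU/LysM as squares and old LysM-Cre as circles; an asterisk marks genes called at a limma adjusted p under 0.05. The squares lie to the right of all circles in 20 of 24 rows, and the groups are farthest apart for Gpnmb, Cst7, Igf1 and Itgax.

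Other genes with large increases fall outside these lists. Ifi44l, an interferon-inducible gene, was at 8.34 and 8.97 in TAU/LysM and was not above background on any old LysM-Cre array, which makes it at least 4.95-fold higher. Dcstamp, a protein needed for the fusion of osteoclasts and macrophages, was at 11.13 and 11.21 against 9.51, 8.52 and 8.98 (2.17 ± 0.38). Fabp3, a fatty acid binding protein, was at 10.03 and 10.21 against 7.86, 8.26 and 7.98 (2.09 ± 0.15), and Il4i1, a secreted amino acid oxidase, at 11.54 and 12.20 against 10.18, 10.05 and 9.89 (1.83 ± 0.22). Klrb1b, an inhibitory lectin-like receptor of natural killer cells, rose by 2.03 ± 0.24, and Chst2, a sulfotransferase, by 1.89 ± 0.28. The 4 probes of Klrb1b gave 0.28 to 2.34, and 3 of them were called. Hal, histidine ammonia lyase, was at 9.20 and 9.24 against 7.74, 6.14 and 7.73, and was above background on 2 of the 3 old LysM-Cre arrays. Its mean was 8.99 in young LysM-Cre and 8.66 in old SIRT1F/F, so old LysM-Cre was the low group. Fabp3, Il4i1, Ifi44l and Klrb1b were called without any 1 array, while Dcstamp and Hal were not called without either TAU/LysM array and Chst2 not without array 2.

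Some of the called genes lie side by side on a chromosome. Within 2 intervening genes of each other, 28 of the 270 called genes formed 12 runs. How many runs as many genes drawn from all tested genes would form was not computed, so this count does not measure clustering. Itgax, its neighbour Itgad, another integrin alpha subunit, and Cox6a2, a cytochrome c oxidase subunit of muscle, are adjacent and all rose. Itgad was at 8.48 and 8.25 against 6.65, 6.89 and 6.83, and Cox6a2 at 11.88 and 12.81 against 10.15, 10.42 and 9.92. Mmp13 and Mmp12, adjacent matrix metalloproteinase genes, rose by 1.49 ± 0.27 and 1.42 ± 0.27, and Trim30d rose by 0.82 ± 0.20 beside Trim30a. Tmem119 and Selplg, adjacent homeostatic genes, both fell, while the next gene, Coro1c, rose by 0.49 ± 0.10. Itgad, Mmp12, Mmp13, Trim30d and Coro1c were picked after their values were seen.

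Interferon-stimulated genes had differences mostly above 0, with few calls. Of 26 tested members 3 rose (1.55% of all genes did) and none fell. The median was 0.50, 24 of the 26 differences were above 0, and both TAU/LysM arrays lay above all old LysM-Cre arrays for 19 (16.3% of all genes). Trim30a, a tripartite motif protein, was at 11.36 and 11.71 against 10.44, 10.13 and 10.14 (1.30 ± 0.17). Ifit2, an RNA-binding antiviral protein, was at 10.12 and 10.62 against 9.44, 9.35 and 9.07 (1.09 ± 0.20). Oas1g, of the oligoadenylate synthetase family, was at 11.54 and 11.49 against 10.45, 10.58 and 10.47 (1.02 ± 0.23). Trim30a has near relatives beside it, and Oas1g belongs to a family of similar genes, so related transcripts may share their probes. Uncalled members included Ifi27l2a (0.87), Irf7 (0.79), Mx1 (0.76) and Usp18 (0.74), and Cxcl10 was at 0.02. The count was 2 without any 1 old LysM-Cre array. The call of Oas1g was lost without any 1 old LysM-Cre array and without either TAU/LysM array. That of Ifit2 was lost without TAU/LysM array 2. The list's median was 0.65 without TAU/LysM array 1 and 0.36 without array 2. In arrays without Cre, TAU against old SIRT1F/F, the median of the same list was 0.13, and no member was called in the test of the difference between the contrasts.

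Promoter windows of 4 called genes are shown because they hold letters of motifs known from these programs. They are 300 bases long, run 5′ to 3′ on the gene's strand and come from RefSeq on GRCm38.p6. Capitals mark the core of the interferon-stimulated response element (ISRE), searched as GAAA, any 2 bases and GAAA on both strands, in Trim30a and Oas1g, where the Oas1g matches overlap. In Gpnmb and Itgax capitals mark the AP-1 site TGACTCA, also searched on both strands. Trim30a has 2 starts in the table, of which 1 is shown. The windows are chr7:104465144-104465443 (minus strand) for Trim30a, chr5:120887564-120887863 (minus) for Oas1g, chr6:49036268-49036567 (plus) for Gpnmb and chr7:128129300-128129599 (plus) for Itgax.
Trim30a: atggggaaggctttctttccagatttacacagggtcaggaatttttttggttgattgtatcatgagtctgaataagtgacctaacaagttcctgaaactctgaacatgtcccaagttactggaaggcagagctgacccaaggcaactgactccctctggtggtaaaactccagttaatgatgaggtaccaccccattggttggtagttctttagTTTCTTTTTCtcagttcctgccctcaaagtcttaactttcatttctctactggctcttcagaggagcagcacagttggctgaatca
Oas1g: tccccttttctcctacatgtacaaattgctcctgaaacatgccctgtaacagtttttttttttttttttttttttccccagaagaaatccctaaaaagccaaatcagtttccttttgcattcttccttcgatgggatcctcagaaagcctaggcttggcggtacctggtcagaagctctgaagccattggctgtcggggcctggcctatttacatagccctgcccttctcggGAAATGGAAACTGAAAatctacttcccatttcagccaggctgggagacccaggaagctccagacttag
Gpnmb: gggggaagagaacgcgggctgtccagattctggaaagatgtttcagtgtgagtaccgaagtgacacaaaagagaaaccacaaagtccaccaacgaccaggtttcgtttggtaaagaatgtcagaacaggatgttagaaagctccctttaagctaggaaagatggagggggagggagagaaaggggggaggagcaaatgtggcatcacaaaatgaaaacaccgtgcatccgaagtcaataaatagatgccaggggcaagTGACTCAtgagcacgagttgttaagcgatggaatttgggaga
Itgax: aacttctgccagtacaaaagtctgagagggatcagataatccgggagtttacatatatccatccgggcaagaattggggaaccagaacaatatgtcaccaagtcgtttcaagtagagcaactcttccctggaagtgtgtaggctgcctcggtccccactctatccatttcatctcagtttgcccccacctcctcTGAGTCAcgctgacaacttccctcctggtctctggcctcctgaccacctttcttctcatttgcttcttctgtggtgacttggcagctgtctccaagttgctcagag
The ISRE letters were in 3.49% of all 27025 promoters in the table and in 3.17% of the 8920 promoters of tested genes. They were in 11 of 18 tested interferon-stimulated genes with a promoter (61.1%). Among genes that rose 10 of 139 held them (7.19%), and among those that fell 3 of 79 (3.8%). The AP-1 letters were in 5.17% of all promoters and in 3.92% of those of tested genes. They were in 11 of the 139 genes that rose (7.91%) and in 3 of 79 that fell (3.8%). Of 12 called disease-associated genes with a promoter, only Gpnmb and Itgax held them (16.7%). The E-box CACGTG was in 7.24% of all promoters, 9.71% of those of tested genes, 8.63% of those of genes that rose and 13.9% of those that fell. An M-box core, a PU.1 core and an LXR repeat were searched too. The first 2 of these were each in 5.04% of genes that rose, beside 2.5% and 3.14% of tested genes. The LXR repeat was in no promoter of a tested gene. These matches describe letters in the window and are not evidence of binding.

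Genes that mark resting microglia fell in part. Of 18 tested homeostatic genes 5 fell (0.91% of all genes did), none rose and 13 did not pass the test, with a median of -0.20. Tmem119, a transmembrane protein of microglia, was at 13.66 and 13.70 against 14.32, 14.36 and 14.40 (-0.68 ± 0.10, adjusted p = 0.00389). Crybb1, a crystallin expressed in microglia, had the largest difference, at 11.67 and 11.62 against 12.38, 13.20 and 12.86 (-1.17 ± 0.23). Sall1, a transcription factor that keeps microglial identity, was at 11.15 and 10.92 against 11.55, 11.74 and 11.62 (-0.60 ± 0.12). Selplg, the P-selectin ligand, fell by 0.46 on the log2 scale and the purinergic receptor P2ry13 by 0.45, on probes that reached 37698 and 37120 intensity units.

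The other homeostatic receptors moved less than their error allowed to call. P2ry12, which senses nucleotides released from damaged cells, was at 13.08 and 13.24 against 13.68, 13.70 and 13.37 (-0.42 ± 0.16, adjusted p = 0.195). Gpr34 differed by -0.41 (adjusted p = 0.0693) and Cx3cr1, on a probe that reached 40819 units, by -0.15, while Fcrls (0.26) and the transcription factor Mef2c (0.29) had values above 0. The count of 5 was 4 without old LysM-Cre array 1, 2 without TAU/LysM array 1 and 1 without any other of the 5 arrays, and no member was called in the fit of the 5 arrays alone, where the list's median stayed at -0.20. Tmem119 was called without any 1 array. In bulk RNA of this kind, fewer cells of a type and less RNA per cell cannot be told apart.

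**Figure D3:**
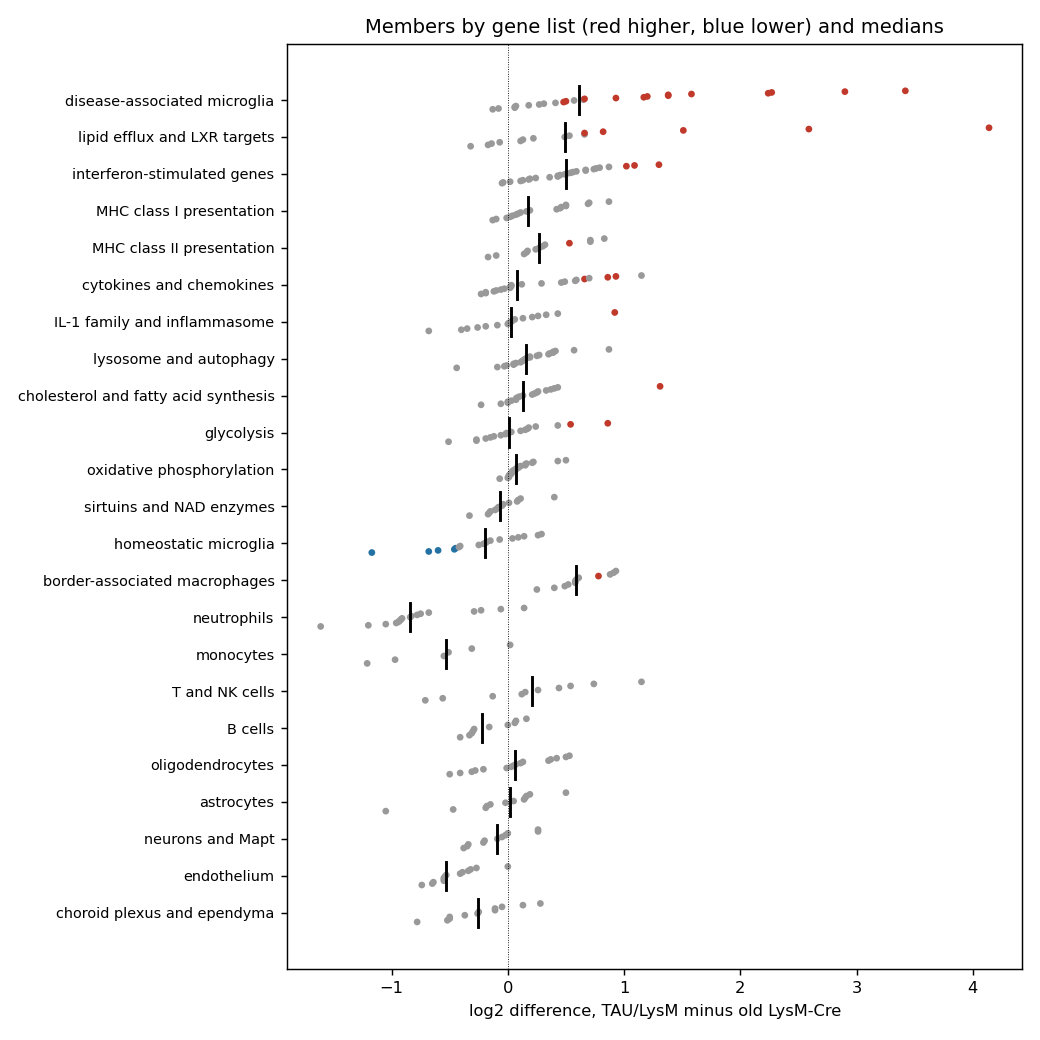
Each point is a tested gene at its log2 difference between TAU/LysM and old LysM-Cre, arranged by list, with red for genes called higher, blue for genes called lower and a black bar at the list's median. Medians are 0.61 for disease-associated microglia, 0.50 for interferon-stimulated genes, -0.20 for homeostatic microglia and -0.84 for neutrophils.

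Markers of other cells that a CD11b fraction can hold gave 1 call. All 12 tested differences of border-associated macrophage genes, whose cells line meninges and vessels, were above 0 with a median of 0.59, and both TAU/LysM arrays lay above all old LysM-Cre arrays for 11 (16.3% of all genes). Only Ms4a7, a membrane protein of these macrophages, was called (1.55% of all genes rose), at 12.94 on both TAU/LysM arrays against 12.16, 12.16 and 12.14 (0.78 ± 0.17), and it was not called without any 1 of the 5 arrays. Lyve1 (0.91), Siglec1 (0.93) and Pf4 (0.88) did not pass the test. The mean level of the list, as log2 of the mean intensity, was 12.66 and 12.70 in TAU/LysM and 12.02 to 12.25 in old LysM-Cre. Ms4a7 is also expressed by activated microglia, and the part of these macrophages in the other increases was not tested.

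Of 17 neutrophil genes none was called (0.91% of all genes fell). Of their differences 16 were below 0, with a median of -0.84, and both TAU/LysM arrays lay below all old LysM-Cre arrays for 15 (17.5% of all genes). The granule genes Camp, at 13.22 and 13.02 against 14.22, 13.92 and 14.06, and Ngp, at 13.76 and 13.34 against 14.58, 14.37 and 14.44, had adjusted p of 0.105 and 0.133. The mean level of the list was at most 13.07 in TAU/LysM and 13.48 to 13.61 in old LysM-Cre. In the fit of the 5 arrays alone 4 of the 17 were called lower. The 6 tested monocyte genes had a median of -0.53 with none called, and their mean level was 10.89 and 10.57 against 11.56 to 11.87.

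Among the largest decreases was Ear6. This gene, an eosinophil-associated ribonuclease, was at 9.66 and 10.35 against 12.31, 11.15 and 12.22 (-1.89 ± 0.42). Mrgpra2b, an Mrg family receptor, was at 9.77 and 9.42 against 11.27, 11.15 and 11.20 (-1.61 ± 0.35), although its other probe gave 0.09. Prg3, an eosinophil granule protein, Chil1, a chitinase-like protein, and Pglyrp1, a peptidoglycan-binding protein of neutrophil granules, fell by 1.46, 1.43 and 1.36 on the log2 scale. The calls of Mrgpra2b and Chil1 were lost without any 1 of the 5 arrays. Those of Ear6 and Prg3 were lost without either TAU/LysM array or old LysM-Cre array 1 or 3. That of Pglyrp1 was lost without TAU/LysM array 2 or old LysM-Cre array 1. These falls went with the lower level of the neutrophil and monocyte lists given above, whose part in them was not tested.

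The remaining large decreases were of varied genes. Lrrc57, a leucine-rich repeat protein, was at 4.92 and 5.53 in TAU/LysM, not above background, against 9.82, 9.88 and 9.28 in old LysM-Cre, which makes it at least 10-fold lower (adjusted p = 0.0462). Its level varied as widely inside other groups, with a mean of 6.53 ± 2.16 (SD, n = 3) in young LysM-Cre, and it was at 5.02 ± 0.11 (n = 2) in TAU. The call of Lrrc57 was lost without any 1 of the 5 arrays. Kcnip3, a calcium-binding potassium channel partner, was at 6.70 and 6.31 against 8.48, 8.88 and 8.38 (-2.07 ± 0.46). Its call was also lost without any 1 array. Only 1 TAU/LysM array was above background for it, so its size is not exact. It too varied inside a group, at 6.53, 8.15 and 6.50 in young LysM-Cre. Pde2a, a phosphodiesterase, was at 7.63 and 7.59 against 8.88, 9.11 and 9.39 (-1.52 ± 0.21). Its mean in young LysM-Cre was 7.88 ± 0.37 (SD, n = 3), nearer to TAU/LysM than to old LysM-Cre. Gp9, a platelet glycoprotein, was at 9.34 and 9.16 against 10.72, 10.76 and 10.64 (-1.46 ± 0.18). Its mean in young LysM-Cre, 10.88 ± 0.16, was near that of old LysM-Cre. Of 8 tested genes of erythrocytes and platelets, Gp9 was the only one called (0.91% of all genes fell). Of their differences 5 were above 0, with a median of 0.49 that was -0.07 without TAU/LysM array 1. Upk1b, a tetraspanin first known from bladder, was at 11.74 and 11.14 against 12.79, 13.04 and 12.64 (-1.38 ± 0.19). Its mean in young LysM-Cre, 12.05 ± 0.11, lay between the means of the compared groups. Cd276, an immune checkpoint ligand, Adpgk, an ADP-dependent glucokinase, Sec16b, of endoplasmic reticulum exit sites, and Ccndbp1, a cyclin D binding protein, fell by 1.58, 1.47, 1.47 and 1.43 on the log2 scale. Adpgk was called on 2 of its 3 probes. Sec16b was above background on 1 TAU/LysM array, so its size is not exact. The call of Cd276 was lost without either TAU/LysM array or old LysM-Cre array 2 or 3. Ccndbp1 was at 8.59, 9.56 and 8.80 in young LysM-Cre. For it, Lrrc57 and Kcnip3 alike, array 2 was the highest in both young groups, and whether their falls are separate was not tested. Gp9, Pde2a and Sec16b were called without any 1 array.

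Cytokine genes gave few calls. Of 22 tested cytokines and chemokines, Ccl6, Ccl9 and Ccl24 rose (1.55% of all genes did) and none fell, with a median of 0.08. The count was 0 without TAU/LysM array 2 and in the fit of the 5 arrays alone, and 1 without old LysM-Cre array 2. The median was 0.07 to 0.22 without any other 1 of the 5 arrays and 0.53 without TAU/LysM array 1. Ccl9 was at 13.07 and 13.42 against 12.55, 12.29 and 12.30, and it lies next to Ccl6. Ccl24, an attractant of eosinophils, was at 10.30 and 10.38 against 9.81, 9.61 and 9.64. Ccl5 had a larger difference, 1.15, with an adjusted p of 0.106. The gene named in the study's title, Il1b, was at 14.97 and 15.09 against 15.05, 14.88 and 15.06, a difference of 0.03 ± 0.10 (adjusted p = 0.915), and the groups overlapped. The Il1b probe reached 35565 intensity units, where a difference can be understated. Of 17 tested genes of the IL-1 family and inflammasome 1 rose (1.55% of all genes did). It was Il1rn, the receptor antagonist of IL-1, at 9.60 and 10.04 against 9.03, 8.58 and 9.09 (0.92 ± 0.21), with 0.14 on its other probe. Casp4, another member, was called higher on 1 of its 3 probes, not the one that gives its value. Il1rn was not called without any 1 of the 5 arrays. The NF-kB list (18 tested) had no calls and a median of 0.07. Of 17 Toll-like receptor genes only Tlr1 rose (1.55% of all genes did), by 0.58 ± 0.12. Its call was lost without either TAU/LysM array or old LysM-Cre array 2 or 3.

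Antigen presentation genes were highest on TAU/LysM array 2. The mean level of the 13 tested genes of MHC class II presentation was 13.33 on TAU/LysM array 1 and 13.81 on array 2, against 13.24 to 13.28 in old LysM-Cre. H2-DMb1, a chaperone that loads peptides, was the only one called, at 12.97 and 13.40 against 12.56, 12.62 and 12.77 (0.53 ± 0.13, adjusted p = 0.0476), and it was not called without TAU/LysM array 2 or any 1 old LysM-Cre array. The 18 MHC class I genes had a median of 0.18 with none called, and H2-D1 differed by 0.87 (adjusted p = 0.0591). Over all tested genes 1.55% rose, beside 1 of the 13 class II genes.

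Sirt1 was at 9.53 and 9.73 in TAU/LysM and 9.97, 9.61 and 9.77 in old LysM-Cre, a difference of -0.15 ± 0.14 (adjusted p = 0.662). Where its probe lies relative to the floxed part is not known here, so the level does not check the deletion. None of 14 tested sirtuins and NAD enzymes was called, and Nampt, which makes the NAD precursor, differed by 0.40 (adjusted p = 0.0898). Lyz2, the gene that holds the Cre, was at 14.07 and 14.08 against 13.87, 13.68 and 13.73 (adjusted p = 0.211), and Lyz1, its neighbour, at 11.41 and 11.63 against 10.88, 11.37 and 11.24 (adjusted p = 0.744). Mapt, the mouse gene for tau, was at 6.50 and 6.23 against 6.06, 6.66 and 6.44. This probe was near background, and above it on 1 TAU/LysM and 2 old LysM-Cre arrays only. The 3 Mapt probes gave -0.02 to 0.48 and none was called. Whether they read a tau transgene is not known here.

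Stress and metabolic lists held 0 to 3 calls each, beside 1.55% of all genes that rose and 0.91% that fell. Of 17 antioxidant and FOXO target genes, Srxn1, sulfiredoxin, rose by 0.91 ± 0.14 and Gpx3, a secreted glutathione peroxidase, by 1.04 ± 0.24, while the transcription factor Foxo1 fell by 0.58. None of these 3 was called without TAU/LysM array 2 or in the fit of the 5 arrays alone, and Gpx3 was called without old LysM-Cre array 3 only. Of 17 p53 target and senescence genes, the kinase Plk2 rose by 1.11 ± 0.13 (10.90 and 11.12 against 9.94, 9.84 and 9.92) and Pmaip1, a pro-apoptotic protein, by 0.70 ± 0.17. The other probe of Pmaip1 gave 0.61 and was not called. Plk2 was called without any 1 array and Pmaip1 only when old LysM-Cre array 1 was the one left out. Of 18 glycolysis genes, Eno2 and Tpi1, which lie near each other, rose by 0.86 ± 0.20 and 0.54 ± 0.09, with a list median of 0.01. Neither was called without TAU/LysM array 1, without array 2 or in the fit of the 5 arrays alone. The call of Eno2 was also lost without old LysM-Cre array 1, 2 or 3. The 3 probes of Tpi1 gave 0.05 to 0.58, and 2 of them were called. Stmn1 was the only one of 18 cell cycle genes that rose (0.59 ± 0.13), a call lost without either TAU/LysM array or old LysM-Cre array 2 or 3. Ddx3x, the only one of 9 sex-linked genes that rose (0.81 ± 0.14), was not called without TAU/LysM array 2. This gene is X-linked, and the part of the differing sex mix in its rise was not tested. Of 24 lysosome and autophagy genes none was called, although 20 differences were above 0, with a median of 0.16 and values of 0.57 for the cathepsin Ctsz and 0.41 for Ctsd. The lists for oxidative phosphorylation (23 tested), heat shock proteins (12), immediate early genes (20), complement and Fc receptors (15), circadian clock (15), alternative activation (14), DNA methylation (11), TREM2 pathway and Alzheimer risk (19), TGF-beta signalling (12) and ribosomal proteins (15) had no calls and medians between -0.18 and 0.10.

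Markers of cells that the CD11b selection should remove gave few calls. No gene was called among 16 oligodendrocyte markers (median 0.06), 12 of astrocytes (0.01), 11 of neurons (-0.09), 12 of choroid plexus and ependyma (-0.26), 10 of B cells (-0.22) or 10 of T and NK cells (0.20). Of the oligodendrocyte markers 5 were not above background on any of the 5 arrays. Of 14 endothelial markers 13 were below 0 with a median of -0.53 and none called, and their mean level was 11.95 and 11.33 against 11.97 to 12.14, so TAU/LysM array 2 was the lowest. The endothelial median was -0.09 without TAU/LysM array 2 and -0.93 without array 1. Among 15 mural and meningeal markers only Cspg4 rose (1.55% of all genes did), by 0.75 ± 0.16. Its call was lost without either TAU/LysM array or old LysM-Cre array 2 or 3. Rgs5 differed by 1.49 with an adjusted p of 0.0568.

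The contrast ran mostly the same way in arrays without Cre. Of the 370 called probes 356 had the same sign in TAU against old SIRT1F/F (96.2%), against 63.9% of all tested probes. The pair of contrasts shares no array, and across the 16344 probes, which are not independent, the differences correlated at 0.45. Apoc1 differed by 3.13 and Gpnmb by 2.65 without Cre, beside 4.14 and 3.42 with it, and neither passed the test of the difference between the contrasts (adjusted p of 0.263 and 0.571). Cst7 differed by 1.95 beside 2.90, Igf1 by 1.57 beside 2.27 and Fabp3 by 2.26 beside 2.09. No disease-associated or homeostatic gene passed that test. The largest such gap among the genes of large increase was that of Hal, 0.28 beside 2.01, and it did not pass either (adjusted p = 0.272).

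**Figure D4:**
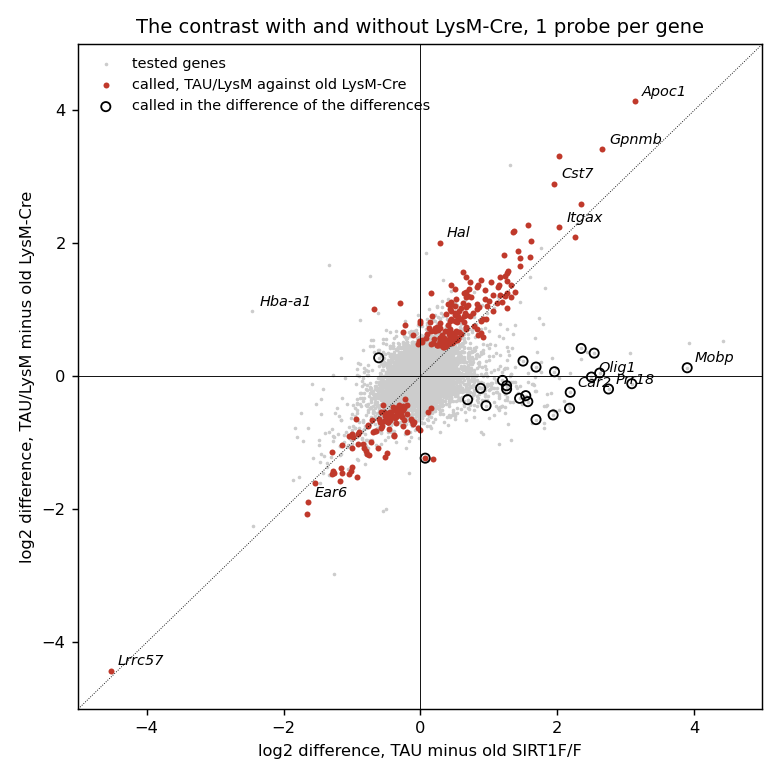
Each point is a gene at its log2 difference between TAU and old SIRT1F/F (horizontal) and between TAU/LysM and old LysM-Cre (vertical); red marks genes called in the latter and open circles those called in the difference between the contrasts, and the dotted line marks equal values. Apoc1, Gpnmb and Cst7 lie above 0 on both axes, while most circled genes, among them Olig1, lie near 0 on the vertical axis and to the right on the horizontal axis. Among the groups plotted, Mobp was above background on the TAU arrays only. Its place therefore shows a lower limit on the horizontal axis and none on the vertical axis.

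The genes that passed that test included 5 oligodendrocyte markers. Over all probes 2 had a larger and 31 a smaller difference with Cre than without (0.202% in all), and 1184 had an unadjusted p under 0.05. Mobp, a myelin protein, was at 5.82 and 5.80 in TAU/LysM and 6.14, 5.73 and 5.19 in old LysM-Cre, but at 9.45 and 10.37 in TAU against 6.28, 5.48 and 6.28 in old SIRT1F/F. Among these groups it was above background on the TAU arrays alone. This makes it at least 11.9-fold higher there than in old SIRT1F/F and gives no size for the contrast with Cre. Olig1, a helix-loop-helix regulator of oligodendrocytes, showed the same order, at 7.44 and 7.66 against 7.62, 7.56 and 7.50 with Cre, and at 10.42 and 10.64 against 8.10, 7.68 and 8.30 without. The TAU arrays were thus the high ones, and the TAU/LysM and old LysM-Cre arrays overlapped. Of the 16 tested oligodendrocyte markers, those 5 were called lower in the difference between the contrasts (0.218% of all genes were). Of these, Fa2h and Ugt8a too were above background in the 4 groups on the TAU arrays alone, and Mog there and on 1 old SIRT1F/F array. To be tested, a probe had to be above background on at least 2 arrays. Mobp and Fa2h met this only with the TAU arrays, so a high TAU level was a condition of their test. The count of 5 and the list's median without Cre are therefore no independent support for high TAU arrays. The calls of Mobp and Mog were lost without TAU array 2 or TAU/LysM array 2, and that of Ugt8a without 8 of the 10 arrays in turn. The list's median was 1.79 in TAU against old SIRT1F/F. Its mean level was 12.27 and 12.48 on the TAU arrays and 11.35 to 11.52 on the 5 arrays compared here. Choroid plexus genes also had a median of 1.88 in TAU against old SIRT1F/F, with none called in the difference. Only Tln1, a protein that links integrins to actin, had a named gene's call in the other direction (0.0091% of genes): 8.83 and 8.68 against 8.58, 8.34 and 8.51 with Cre, and a difference of -0.61 without. This call was lost without any 1 of the 10 arrays.

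**Figure D5:**
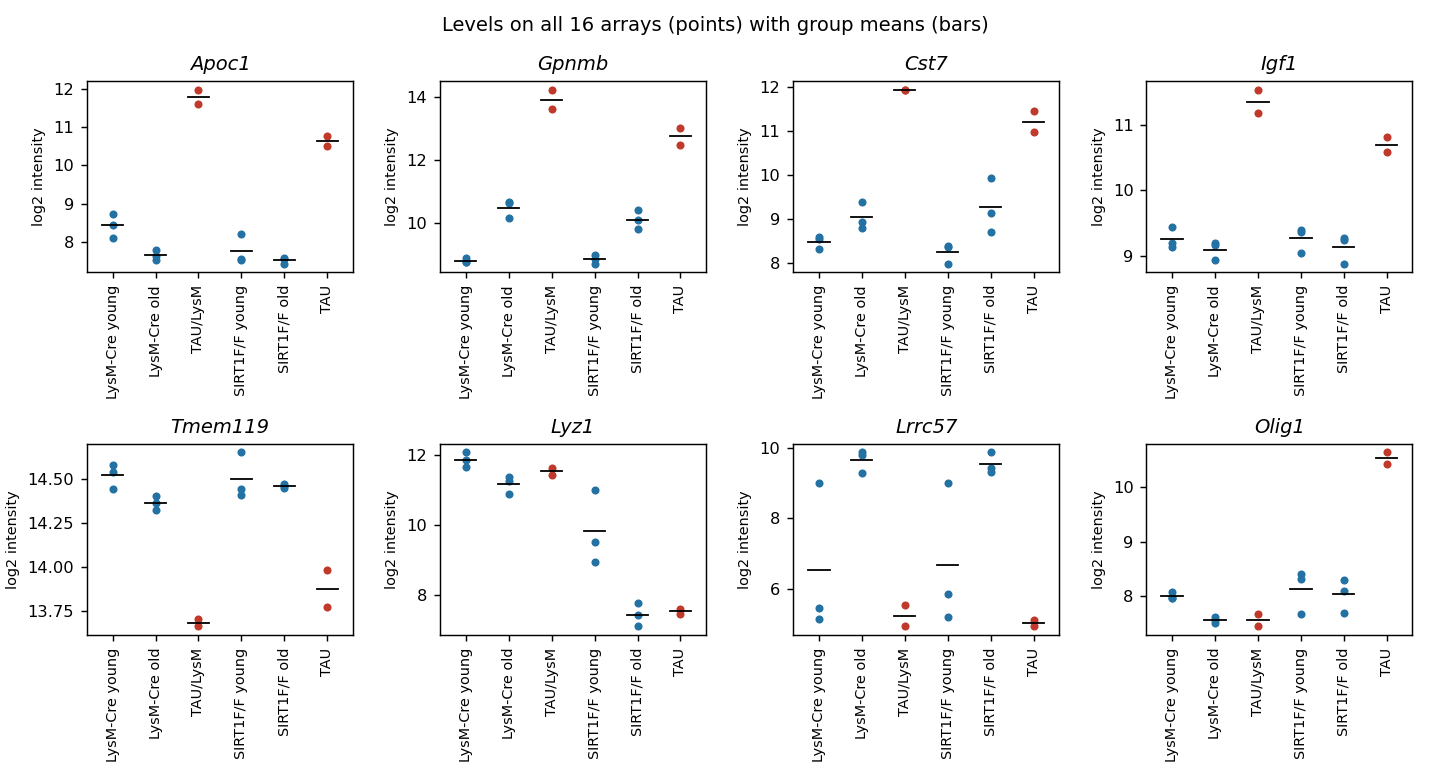
Each panel shows the log2 normalized intensity of 1 gene on all 16 arrays, as points by group with a bar at the group mean, red for groups with TAU and blue for the others. Apoc1, Gpnmb, Cst7 and Igf1 are higher in both TAU groups, Tmem119 is lower in both, Lyz1 is lowest in old SIRT1F/F and TAU, Lrrc57 varies within the young groups and Olig1 is high in TAU alone.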

How the data were processed

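Gene expression was measured on 16 Illumina arrays in 6 groups. The authors' deposited intensity table lists every probe without control probes or detection values, and array medians and minima that differ show raw, unnormalized signals. They also deposited log2 values, which equal the quantile-normalized log2 intensity to within 5e-09. The scanner and its software are not stated in what was used here.

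Intensities were background corrected with normexp (offset 16, fitted on all probes), log2 transformed and then quantile normalized. An array's background limit was set from the mode of its log2 intensity and the spread below it, at an upper tail of 0.05. The 16344 of 25697 probes above it on at least 2 arrays were tested. Probe names came from the platform table (1 symbol for 23978 probes, none for 1719), with neighbours from GRCm38.p6 and no positions of genes printed. A limma 3.58.1 fit in R 4.3.3 held 6 group means over all arrays (10 residual and 3.68 prior degrees of freedom), was tested on simulated data, and called probes at a Benjamini-Hochberg adjusted p under 0.05 over all tested probes.

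A gene's value is that of its brightest tested probe under 30000 intensity units on every array, or of its brightest tested probe where none was under that (77 of 10986 genes, 4 of them called). Named genes are the 14 largest calls in each direction, a fixed set that includes Sirt1 and Il1b, the called members of each list with up to 4 others of smallest p, and the 6 calls of smallest p in each direction for the difference between contrasts; further genes were picked after their values were seen, as examples of a list, of neighbours or of a promoter. The 40 lists hold 766 entries, of which 623 had a tested probe. The members and lists were chosen with earlier results of these data known. Where no array of a group was above background, the fold is the brighter mean against the higher of each dim array's lowest signal above background and the probe's own, written "at least". No block was set for arrays of the same number, and alternatives are given in the closing section.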

Additional observations from a re-analysis of the deposited data

Results flagged for a closer look

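With 1 probe taken per gene, the limma test of the difference between the contrasts called 24 genes lower and 1 higher. The contrasts were TAU/LysM against old LysM-Cre and TAU against old SIRT1F/F. Listed here for a closer look are the calls of smallest p and the called oligodendrocyte markers. On the log2 scale the difference between the contrasts was -3.77 for Mobp, -2.94 for Prr18, -2.57 for Mog, -2.51 for Olig1, -2.43 for Car2, -2.19 for Fa2h, -1.93 for Ugt8a and -1.27 for Hcn2, and 0.89 for Tln1. The values of Mobp, Fa2h and Ugt8a are not exact sizes. In the groups of these contrasts they were above background on the TAU arrays alone. There they were at least 11.9-fold, 3.7-fold and 3.14-fold higher than in old SIRT1F/F. Mobp and Fa2h entered the test only through the TAU arrays, so their high level there was a condition of it. In the same groups Mog was above background on the TAU arrays and on 1 old SIRT1F/F array. These 4 genes therefore have no order among the others. In the first 8 of the genes named the TAU arrays were high, and in none of the 9 was TAU/LysM against old LysM-Cre itself called. Called in the difference between the contrasts but not listed were, among others, Plekhb1 (-3.21), Kcnk1 (-2.51), Slc29a4 (-2.34) and Slc39a12 (-1.3). Slc39a12 also had a probe called in TAU/LysM against old LysM-Cre. Prr18 was at 10.18 and 10.67 in TAU and 7.34 and 7.28 in TAU/LysM, and Fa2h, an enzyme of myelin lipid synthesis, at 8.02 and 8.43 against 5.91 and 5.78. Without TAU array 2 the adjusted p was 0.0649 for Mobp, 0.0649 for Hcn2, 0.0662 for Mog, 0.14 for Ugt8a and 0.131 for Tln1. Without TAU/LysM array 2 it was 0.0834 for Mobp, 0.0834 for Hcn2, 0.112 for Mog, 0.24 for Ugt8a and 0.13 for Tln1. Ugt8a was not called without 8 of the 10 arrays left out in turn (all but old SIRT1F/F array 1 and old LysM-Cre array 3), and its adjusted p was 0.0566 in the fit of the 10 arrays alone and 0.0593 with no filter on dim probes. Tln1 was not called without any 1 of the 10, and its adjusted p was 0.0566 in the fit of the 10 arrays alone, 0.102 with median scaling, 0.0976 with no filter and 0.0566 with trended and robust variance.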

How the results depend on the processing

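The count of 370 called probes was 138 in a fit of the 5 arrays alone, 198 with no filter on dim probes and 63 to 257 with 1 of the 5 arrays left out, with 74.2% to 79.4% of calls higher without old LysM-Cre array 2 or 3 or either TAU/LysM array, beside 65.4%. It was 296 to 551 under the other alternatives (deposited log2 values, median scaling, offset 50, a stricter filter, trended and robust variance, array weights, 1 probe per gene). The 33 calls in the difference between contrasts became 51 in a fit of the 10 arrays alone, 87 with the deposited log2 values, 80 with offset 50, 21 with no filter, 95 with array weights and 6 to 41 with 1 array left out, the fewest without TAU/LysM array 2 and 8 without TAU array 2. With the replicate number as a block these counts were 365 and 133, and 296 of the 370 calls were kept. The block lost 11 of 64 named calls (Cd9, Chil1, Ear6, Gpx3, H2-DMb1, Il1rn, Mrgpra2b, P2ry13, Plin2, Prg3 and Stmn1). Deviations of same-numbered arrays correlated at 0.03 and -0.03 between TAU/LysM and old LysM-Cre, which are mirror values because TAU/LysM has 2 arrays, so this says little about pairing. Between the young groups they correlated at 0.35, 0.51 and 0.24, between young and old LysM-Cre at -0.02, 0.40 and 0.34, and between TAU and TAU/LysM at 0.24, a hint from the data, not from the labels, that same-numbered arrays of some groups deviate together. Apart from the smaller number of arrays or larger number of probes in a fit, the cause of these shifts was not tested. Of 370 called probes 48 were called without any 1 of the 5 arrays. Of 1242 recomputed gene values 1007 kept direction and side of the threshold, 220 were no longer called and 15 changed sign, none of them called. The 15 were found for Hba-a1 (-1.27 without TAU/LysM array 1), Il1b (-0.03 without old LysM-Cre array 2 and -0.03 without TAU/LysM array 2), Xist (-0.27 with the replicate block), Mapt (0 with median scaling, 0.01 with array weights, 0.01 with the block, 0.12 and 0 without old LysM-Cre array 2 and 3, 0.11 without TAU/LysM array 2), Car2 (0.04 without TAU/LysM array 2), Mobp (-0.12 without old LysM-Cre array 3) and Olig1 (0.05 with the block, 0.02 without old LysM-Cre array 1, 0.10 without TAU/LysM array 1). With 2 TAU/LysM arrays, leaving out 1 assumes that the other varies like the remaining groups. With 1 array left out, Hba-a1 ranged from -1.27 to 3.23, Il1b from -0.03 to 0.09, Mapt from -0.18 to 0.12, Car2 from -0.51 to 0.04, Mobp from -0.12 to 0.35 and Olig1 from -0.12 to 0.1. Genes near background, such as Ifi44l and Lrrc57, have only bounds on 1 side, and Mobp has no size in TAU/LysM against old LysM-Cre.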
